A study of Mus musculus with 4 samples.

Results

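The 10 genes described here encode the MHC class I antigen presentation pathway: the heavy chains H2-K1 and H2-D1, the light chain B2m, the peptide transporter Tap1 and Tap2, the loading chaperone Tapbp, the immunoproteasome subunits Psmb8, Psmb9 and Psmb10, and the transactivator Nlrc5. They were found by symbol among the 54532 genes of a deposited FPKM table (fragments normalised for gene length and sequencing depth), and each symbol matched 1 gene. Cells show peptides cut from their own proteins on class I molecules, which CD8+ T cells read. Proteasomes cut the proteins, TAP moves the peptides into the endoplasmic reticulum, and tapasin helps to load them onto a heavy chain paired with beta-2 microglobulin. Interferon raises most of these genes together, partly through NLRC5, and the B16 mouse melanoma line is known for low class I that interferon can raise.

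The series is about Piezo1, a mechanically gated cation channel, in Th9 cells, a helper T cell type named for its interleukin. RNA was sequenced in 4 mouse libraries, 2 of genotype WT and 2 of genotype Piezo1KO, which carry the label of CD4+ T cells isolated by flow cytometry from B16 tumours; the treatment given for all 4 is the tumour surroundings alone. The labels do not state the strain, the age, the kind of deletion or whether it was limited to 1 cell type, nor is it stated if animals were pooled or separate. P-values thus reflect only how far these libraries vary, and that variation may be technical.

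Pairs of values are given throughout in the order library 1, library 2 of a group. Assigned reads ranged from 13789266 to 15892797 per library. Piezo1 itself read 27.8 and 27.6 FPKM in WT against 18.7 and 7.64 in Piezo1KO, lower in both but not past the test (log2 difference -1.14, limma adjusted p = 0.166). The sorted cell type was not visible in the markers: 17 T cell genes held 200 and 142 reads in WT against 640 and 218 in Piezo1KO, while 12 melanocyte genes held 152186 to 404904. Cd3e, a T cell receptor subunit, had at most 27 reads in any library. Levels below are therefore those of bulk RNA rich in melanocyte transcripts. Mitochondrial genes took 3.86% and 2.99% of assigned reads in WT against 20.1% and 48.3% in Piezo1KO. The library size behind the deposited FPKM was 1.26 and 1.28 times the assigned reads in WT against 0.962 and 0.544 times in Piezo1KO. A fold change between groups therefore depends on the scaling, and values are given on 3 scales where it matters: as deposited, per assigned read, and per assigned read outside mitochondrial genes. Across the 11085 genes tested, the median log2 fold change was -0.0059, -0.67 and -0.20 on these scales.

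The class I chains share a promoter layout, which is shown for the 3 genes of the class I molecule itself; its relation to the values below was not tested. RefSeq promoter windows (GRCm38.p6, 250 bases before to 50 after the start site) matched 8 of the 10 genes; Tap2 and Nlrc5 were not matched. In the runs below, capitals mark an NF-kB palindrome (the first capitals of H2-K1), an interferon regulatory factor motif (AANNGAAA), a cyclic AMP response element core (TGACG) and a Y box (CCAAT), searched on both strands. The first run lies at chr17:34000348-34000597 on the minus strand, before any annotated exon of H2-K1.
H2-K1: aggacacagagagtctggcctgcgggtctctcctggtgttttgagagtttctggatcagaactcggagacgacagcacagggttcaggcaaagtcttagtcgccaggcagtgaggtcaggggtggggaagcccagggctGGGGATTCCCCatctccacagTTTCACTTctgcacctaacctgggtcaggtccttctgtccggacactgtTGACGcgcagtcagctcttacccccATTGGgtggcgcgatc
The second run lies at chr2:122147437-122147685 on the plus strand, before the first annotated exon of B2m.
B2m: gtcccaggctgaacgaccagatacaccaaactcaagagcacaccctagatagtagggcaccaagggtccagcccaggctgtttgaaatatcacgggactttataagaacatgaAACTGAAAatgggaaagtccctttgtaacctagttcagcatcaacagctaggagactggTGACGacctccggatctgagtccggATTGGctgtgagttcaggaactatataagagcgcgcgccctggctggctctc

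In all 3 class I chain genes the core and an inverted Y box stood exactly 20 bases apart on the gene's strand. These are the stretches at chr17:34000359-34000388 (minus), chr17:35262993-35263022 (plus) and chr2:122147609-122147638 (plus), with the core and the Y box in capitals. The H2-D1 stretch, unlike the others, lies within an annotated exon of H2-D1.
H2-K1: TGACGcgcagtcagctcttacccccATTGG
H2-D1: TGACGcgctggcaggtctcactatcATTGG
B2m: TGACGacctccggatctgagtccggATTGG

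This pair at this spacing was found in 31 of 32851 windows of the same length, or 0.0944%, on either strand. The NF-kB palindrome was in H2-K1 and H2-D1 and in 0.0304% of windows. The interferon regulatory factor motif was in H2-K1, H2-D1 and B2m and in 23.9% of windows, the core in 5 of the 8 matched genes and in 20.8% of windows, and the Y box in 6 and in 37.4%. Tap1 and Psmb9, which are transcribed away from each other, each held a core and a Y box, but not at that spacing. The windows of Psmb8 and Psmb10 held none of the 4 motifs. The motifs were chosen with the sequences in view, and a match describes letters, not binding.

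**Figure D1:**
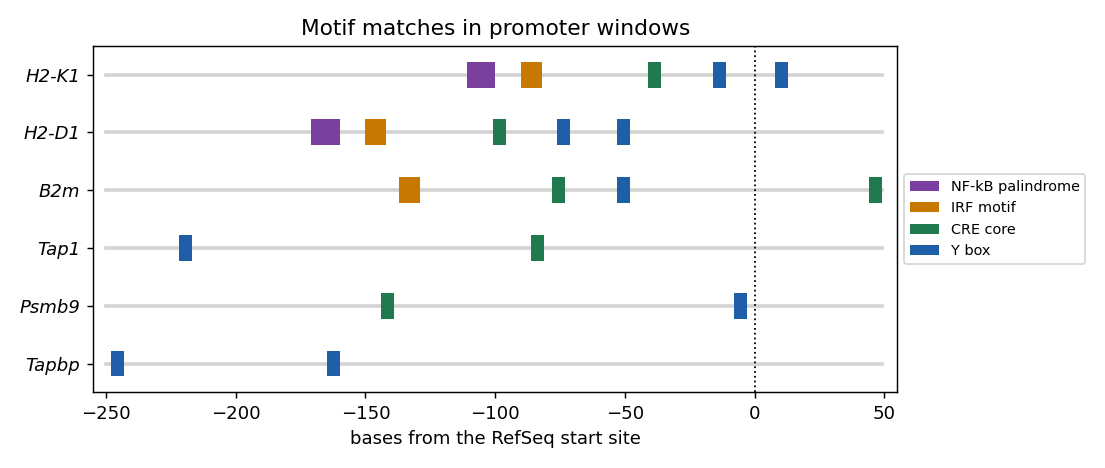
Motif matches in the RefSeq promoter windows of the 6 genes that held any, by distance in bases from the start site (dotted line), from 250 before to 50 after it. Each coloured block is 1 match on either strand. In H2-K1, H2-D1 and B2m the core and the next Y box are 20 bases apart.

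The heavy chains bind the peptide and are what the T cell receptor reads. H2-K1 (ENSMUSG00000061232, chromosome 17, 33996017 to 34000333, GRCm38) read at an FPKM of 23.7 and 16.9 in WT against 66.7 and 52.0 in Piezo1KO, from 1218, 896, 2564 and 1016 reads. Both Piezo1KO values lay above both WT values. The means were 20.3 ± 4.81 and 59.3 ± 10.4 (SD, n = 2 each), and log2(FPKM + 1) was 1.51 higher in Piezo1KO (standard error 0.23) and missed the threshold (limma adjusted p = 0.0824). H2-D1 (ENSMUSG00000073411, chromosome 17, 35262730 to 35267499) had 27.7 and 27.0 in WT against 94.99 and 61.4 in Piezo1KO. Again the groups did not overlap, and Piezo1KO 1 stood highest. The log2 difference was 1.45 (standard error 0.25, limma adjusted p = 0.0947). H2-K1 and H2-D1 are close paralogs, so how reads were split between them is uncertain.

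B2m (ENSMUSG00000060802, chromosome 2, 122147686 to 122153083) encodes the light chain that every classical class I molecule needs. Its FPKM was 102.7 and 88.7 in WT against 280.1 and 188.5 in Piezo1KO, from 1741, 1552, 3553 and 1215 reads. It was the most abundant of the 10 genes in every library, above 98.5% to 99.4% of protein-coding genes. The log2 difference was 1.26 (standard error 0.26, limma adjusted p = 0.118), with no overlap between the groups. In bulk RNA, fewer cells of a type and less RNA per cell cannot be told apart, here or in the results that follow.

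The balance of heavy and light chains can be read within a library, where no scaling enters. H2-K1 and H2-D1 together had 50.04% and 49.5% of the FPKM of B2m in WT against 57.7% and 60.2% in Piezo1KO. The heavy chains thus stood somewhat higher against B2m in both Piezo1KO libraries, a log2 difference of 0.24. H2-K1 had 85.5% and 62.5% of H2-D1 in WT against 70.2% and 84.6% in Piezo1KO, so this ratio overlapped between the groups. These ratios were chosen after their values were seen, and with 2 libraries a group the smallest exact permutation p is 0.333.

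The peptide loading genes were far lower. Tap1 (ENSMUSG00000037321, chromosome 17, 34187553 to 34197225), a chain of the peptide pump, read at an FPKM of 1.54 and 0.880 in WT against 5.23 and 2.17 in Piezo1KO, from 166, 98, 422 and 89 reads. Tap2 (ENSMUSG00000024339, chromosome 17, 34203527 to 34216321), its partner chain, had 0.832 and 0.546 in WT against 1.76 and 1.24 in Piezo1KO. In both genes the groups did not overlap, and Piezo1KO 1 was the highest library. Their log2 differences were 1.02 and 0.56 (standard errors 0.38 and 0.22, limma adjusted p of 0.171 and 0.181). Tap1 stood above Tap2 in every library, at 161% to 297% of its FPKM.

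Tapbp was higher in Piezo1KO on the deposited scale. Tapbp (ENSMUSG00000024308, chromosome 17, 33915899 to 33929288) encodes tapasin, which holds an empty class I molecule next to TAP. Its FPKM was 5.57 and 5.79 in WT against 14.7 and 13.1 in Piezo1KO, from 362, 388, 716 and 323 reads. The libraries of each group lay close together, with means of 5.68 ± 0.152 and 13.9 ± 1.17 (SD, n = 2 each). The log2 difference was 1.16 (standard error 0.13, limma adjusted p = 0.0492), just inside the threshold of 0.05. Against Calr, the abundant chaperone calreticulin of the same loading complex, Tapbp had 2.51% and 2.42% in WT against 6.14% and 6.35% in Piezo1KO. This ratio was chosen after its values were seen, and its exact permutation p was 0.333, the smallest possible here. Such a ratio depends on its denominator. B2m to Psmb5, for 1, overlapped between the groups (105% and 98.6% in WT against 198% and 74.7% in Piezo1KO). The limma call of Tapbp was lost per read outside mitochondrial genes (adjusted p = 0.0851, log2 difference 0.97) and per assigned read (adjusted p = 0.433, log2 difference 0.43). Per assigned read the groups overlapped, with Piezo1KO 2 (7.11) between the WT libraries (7.02 and 7.41). Tapbp shares 3421 bases with Zbtb22 on the same strand, which had 156 to 532 reads.

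The immunoproteasome replaces the catalytic subunits of the standard proteasome and favours peptides that fit class I. Psmb8 (ENSMUSG00000024338, chromosome 17, 34197721 to 34201454) rose in Piezo1KO. It read at an FPKM of 0.556 and 0.413 in WT against 4.04 and 3.32 in Piezo1KO, from 30, 23, 163 and 68 reads. Mean FPKM in Piezo1KO was 7.59 times the WT mean, and the log2(FPKM + 1) difference, which understates the change of low genes, was 1.65 (standard error 0.18, limma adjusted p = 0.0461). Psmb8 passed the filter of a mean FPKM of at least 1 only through the Piezo1KO libraries. It also passed per assigned read (adjusted p = 0.0222), but not per read outside mitochondrial genes (adjusted p = 0.0549).

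Psmb9 (ENSMUSG00000096727, chromosome 17, 34181988 to 34187764) had the largest ratio of means among the 10 genes, but its mean FPKM was below 1, so it was not tested. It had 9 and 6 reads in WT against 95 and 22 in Piezo1KO, or an FPKM of 0.125, 0.0806, 1.76 and 0.802. In RPM (reads scaled to the assigned total) these were 0.575 (exact 95% binomial interval 0.263 to 1.09), 0.378 (0.139 to 0.822), 6.20 (5.01 to 7.57) and 1.60 (1.00 to 2.42). The interval of Piezo1KO 2 overlapped that of WT 1, and intervals cover counting error only. Psmb9 and Tap1 overlap by 212 bases on opposite strands, and the strand setting is not stated, so reads in that overlap cannot be assigned to either gene.

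Psmb10 (ENSMUSG00000031897, chromosome 8, 105935735 to 105938444) was the best expressed of the 3 subunits. Its FPKM was 8.06 and 6.98 in WT against 15.0 and 22.3 in Piezo1KO, from 271, 242, 377 and 285 reads. Unlike the other genes with separated groups it was higher in Piezo1KO 2 than in Piezo1KO 1. The log2 difference was 1.18 (standard error 0.22, limma adjusted p = 0.108).

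Nlrc5 (ENSMUSG00000074151, chromosome 8, 94434356 to 94527272), the transactivator of class I promoters, was the 1 gene of the 10 whose groups overlapped. It had 22 and 33 reads in WT against 78 and 9 in Piezo1KO, or an FPKM of 0.131, 0.191, 0.623 and 0.141. The Piezo1KO 2 value lay between the WT values in FPKM. In RPM the WT libraries had 1.41 (exact 95% binomial interval 0.881 to 2.13) and 2.08 (1.43 to 2.92), Piezo1KO 1 had 5.09 (4.02 to 6.35) and Piezo1KO 2 had 0.653 (0.298 to 1.24). On that scale Piezo1KO 2 lay below both WT libraries, with an interval that overlapped that of WT 1. Nlrc5 was below the filter and was not tested.

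**Figure D2:**
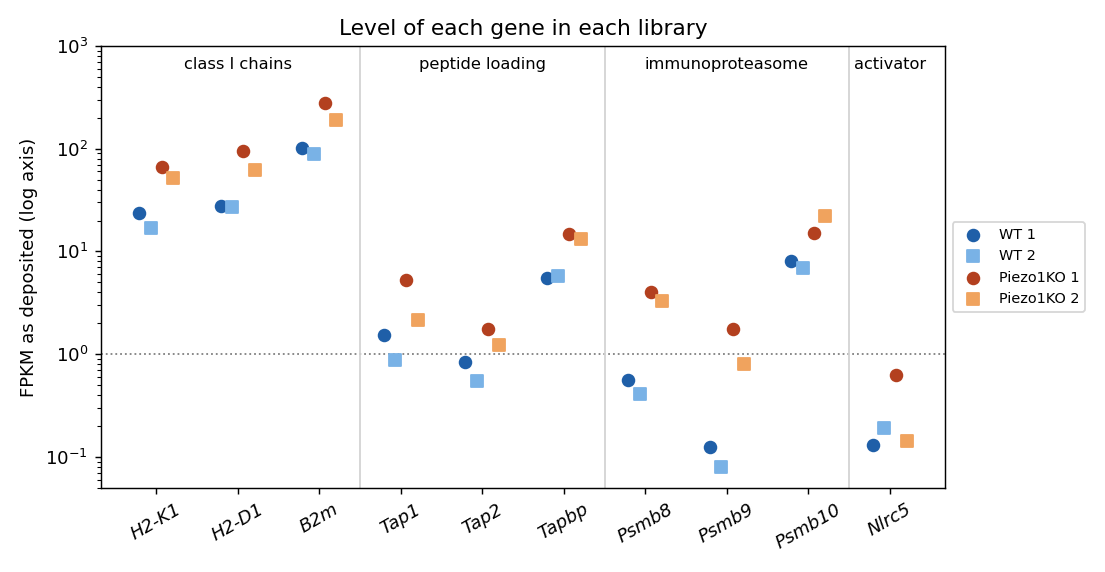
FPKM as deposited (log axis) of the 10 genes in the 4 libraries, 1 point per library, grouped by role. The dotted line is 1 FPKM, the mean a gene needed to be tested. Both Piezo1KO points lie above both WT points for every gene except Nlrc5, and B2m is highest in every library.

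Each immunoproteasome subunit was next set against the constitutive subunit it replaces, a ratio within a library that no scaling changes. Psmb8 had 0.570% and 0.459% of the FPKM of Psmb5 in WT against 2.85% and 1.31% in Piezo1KO. Psmb9 had 0.204% and 0.147% of Psmb6 in WT against 2.03% and 0.598% in Piezo1KO. Psmb10 had 33.4% and 29.2% of Psmb7 in WT against 47.7% and 68.6% in Piezo1KO. All 3 ratios were higher in both Piezo1KO libraries than in both WT libraries, with log2 differences of 1.92, 2.67 and 0.87. The two-sided exact permutation p was 0.333 for each, the smallest that 2 libraries against 2 allow. The constitutive subunits stayed far above Psmb8 and Psmb9 in all 4 libraries.

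**Figure D3:**
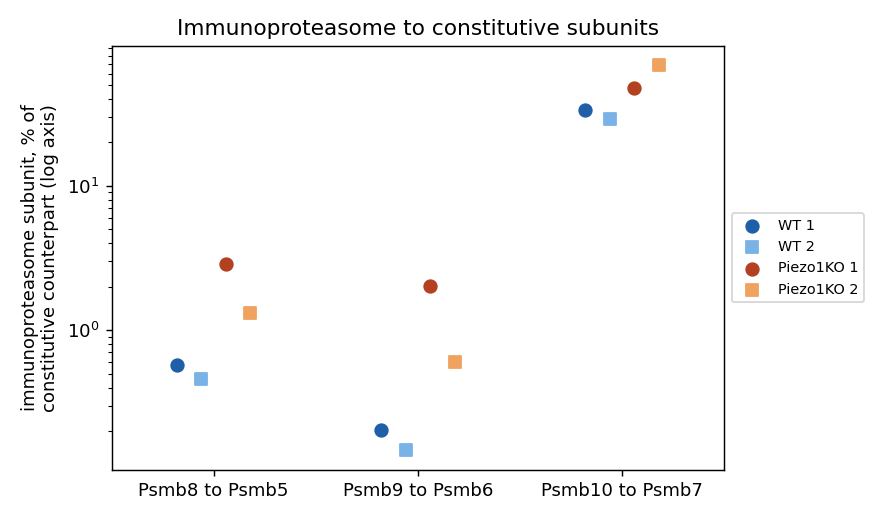
FPKM of each immunoproteasome subunit as a percentage of its constitutive counterpart (log axis), 1 point per library. For each of the 3 pairs both Piezo1KO points lie above both WT points, and Psmb8 and Psmb9 stay under 3% of their counterparts.

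Over the 10 genes, 8 passed the filter and 2 of these, Tapbp and Psmb8, passed the test, both higher. Of the 11085 genes tested, 0.731% were called higher and 0.37% lower (limma, adjusted p under 0.05). At an unadjusted p under 0.05 it was 7 of the 8, against 28.6% of all tested genes. Tap2 and Psmb8 passed the filter through the Piezo1KO libraries alone, which biases such counts towards higher genes. The groups did not overlap, with Piezo1KO higher, for 9 of all 10 genes, where 21.7% of the 23654 genes above 0 in any library did so. Per read outside mitochondrial genes this held for 9 of 10 (15.6% of all genes), and per assigned read for 3 of 10, Psmb8, Psmb9 and Psmb10 (6.73% of all genes). Relative to other tested genes, the deposited log2 difference of H2-K1 was above that of 96.9%, of H2-D1 96.6%, of B2m 95.1%, of Tapbp 94.1%, of Psmb8 97.5%, of Psmb10 94.4%, of Tap1 92.8% and of Tap2 82.7%.

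The direction was the same in the tested genes on each scale, and the size was not. Per assigned read the log2 differences of H2-K1, H2-D1 and B2m were 0.72, 0.66 and 0.45, and Piezo1KO 2 lay below both WT libraries for B2m (102.5 against 129.4 and 113.6 on that scale), H2-D1 (33.4 against 34.9 and 34.6) and Tap2 (0.671 against 1.05 and 0.699). The difference from the median of all tested genes was positive for all 8 on all 3 scales. With 1 library left out, an arm is a single library that is assumed to vary like the other group, so the spread comes from the other group alone. Without WT 1 or without WT 2, 0 of all 11085 genes passed, the 8 included, with 5 and 4 of the 8 at an unadjusted p under 0.05 in limma, as had 6.52% and 5.56% of all tested genes. The log2 differences were then 1.13 and 1.18 for Tapbp and 1.72 and 1.58 for Psmb8. Without Piezo1KO 1, 6 of the 8 were called higher, and without Piezo1KO 2, 7, but these fits called 27.5% and 9.71% of all tested genes higher and 52.9% and 14.2% in either direction.

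The share of all tested genes called higher, against which the counts of the closing section can be read, was 2.5% per assigned read and 0.695% per read outside mitochondrial genes. It was 0.749% with a pseudocount of 0.1, 0.00423% with no filter, 0.881% at a mean FPKM of at least 5, 1.13% after quantile normalisation, 1.79% in voom on recovered reads and 1.73% with a replicate block. Called lower were 12.9% per assigned read and 11.9% in voom. At an unadjusted p under 0.05 the share was 17.6% with no filter and 30.9% per read outside mitochondrial genes.

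**Figure D4:**
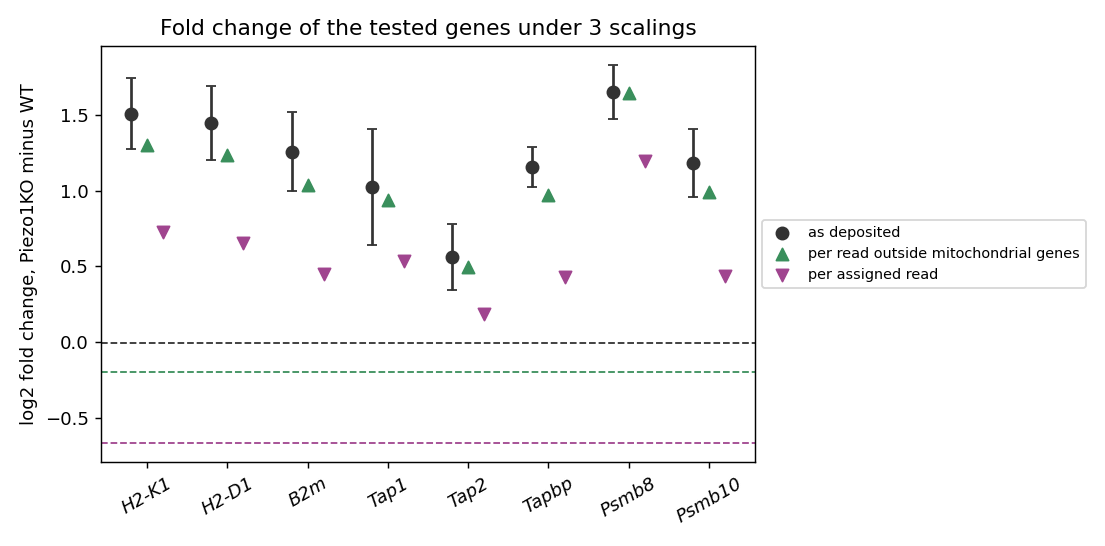
Log2 fold change, Piezo1KO minus WT, of the 8 tested genes with FPKM as deposited (circles, with the standard error), scaled to assigned reads outside mitochondrial genes (upward triangles) and scaled to all assigned reads (downward triangles). Dashed lines are the median of all 11085 tested genes on each scale, -0.0059, -0.20 and -0.67; every gene lies above its own line.

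Markers of several other cell types were also higher in both Piezo1KO libraries. For scale, this held for 21.7% of the 23654 genes above 0 in any library. Of all tested genes, 33.9% were higher and 35.6% lower in both. The 10 pan-leukocyte genes, all higher in both Piezo1KO libraries, summed to 110.8 to 116 FPKM in WT and 245 to 268 in Piezo1KO, and 13 of 14 macrophage genes were higher, with sums of 81.6 to 111 and 405 to 589. Of 7 dendritic cell genes 5 were higher (1.86 to 2.02 against 5.05 to 10.5, Clec9a at 0 in WT), of 7 neutrophil genes 6 (0.902 to 1.31 against 48.1 to 143.6, Ly6g at 0 in all 4 libraries), of 17 T cell genes 12 (2.84 to 3.37 against 12.5 to 19.0, Cd8a at 0 in WT), and of 5 NK cell genes 3 (0.0651 to 0.107 against 3.04 to 5.10, Gzma at 0 in WT). The 5 erythroid genes summed to 244 to 389 in WT and 5124 to 8472 in Piezo1KO. Of 6 fibroblast genes 5 were higher, though their sums overlapped (4.06 to 5.04 against 4.995 to 11.9). Sums also overlapped for the B cell genes, of which 1 of 4 was higher (1.06 to 1.29 against 1.05 to 3.02), and the endothelial genes, of which 2 of 6 were (6.84 to 10.5 against 10.5 to 16.4). The 12 melanocyte genes summed to 6354 to 6390 in WT and 6875 to 6945 in Piezo1KO, 3 higher and 6 lower in both. The sums of all marker lists, melanocyte included, were higher in Piezo1KO 1 than in Piezo1KO 2, except the erythroid and endothelial sums. All of the 10 genes except Psmb10 were also higher in Piezo1KO 1, so this order was not particular to 1 cell type. Per assigned read, 6 of the 10 pan-leukocyte and 10 of the 14 macrophage genes were higher in both Piezo1KO libraries, as were 6.73% of the genes above 0 in any library. So were 5 of 5 erythroid, 5 of 7 neutrophil, 9 of 17 T cell, 4 of 7 dendritic cell and 3 of 5 NK cell genes. The count was 1 of 6 for fibroblast, 1 of 6 for endothelial, 0 of 4 for B cell and 0 of 12 for melanocyte genes. Leukocytes express class I at high levels, and the part of these cells in the results above was not tested.

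The rest of the pathway was described by role from 64 further genes, 49 of them tested. None passed in limma, with 13 higher and 4 lower at an unadjusted p under 0.05 (28.6% of all tested genes were under it), and voom called 2, both lower, where it called 11.9% of all tested genes lower. Per assigned read 4 of the 49 were called lower, Hspa5, Ifnar1, Lnpep and Uggt1, where 12.9% of all tested genes were. On the deposited scale the median log2 difference of the 49 was 0.12. There 19 were higher and 16 lower in both Piezo1KO libraries, where 33.9% and 35.6% of all tested genes were. Per assigned read 5 were higher and 30 lower, with a median of -0.63 beside -0.67 for all tested genes. Per read outside mitochondrial genes 17 were higher and 22 lower, with medians of -0.092 and -0.20.

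Nonclassical class I genes and relatives share the light chain or the fold. Of 18 listed, 7 were tested, 1 of them through the Piezo1KO libraries alone. As deposited, 5 of the 7 were higher and 1 lower in both Piezo1KO libraries, with a median log2 difference of 0.76. Of all tested genes 33.9% and 35.6% were. Per assigned read 1 of the 7, H2-T23, was higher and 2 were lower. On that scale 6.73% of the genes above 0 in any library were higher. H2-T23, which encodes Qa-1, the ligand of an NK cell receptor, read at an FPKM of 1.69 and 1.36 in WT against 8.26 and 5.59 in Piezo1KO. It did not overlap between groups on any of the 3 scales, with a log2 difference of 1.63 (standard error 0.22, limma adjusted p = 0.0641). H2-Q4, H2-T22 and Fcgrt, the neonatal Fc receptor chain, had 0.76, 0.71 and 0.77 (limma adjusted p of 0.117, 0.0955 and 0.141). Per assigned read the groups overlapped for each of them. Piezo1KO 2 lay below both WT libraries there for H2-Q4 (4.08 against 5.93 and 5.45) and H2-T22 (6.86 against 8.87 and 8.98). H2-Q1, H2-Q2 and H2-T3 had no reads. Some genes of the H2-Q and H2-T regions are close in sequence to each other, so how reads were split among those is uncertain.

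Of 9 loading and trimming genes other than Tapbp, 2 were higher and 3 lower in both Piezo1KO libraries on the deposited scale. Their median was -0.050, and 33.9% and 35.6% of all tested genes were higher and lower in both. Per assigned read 0 of the 9 were higher and 7 lower, Calr and Pdia3 among the lower. Calr read at an FPKM of 222 and 239 in WT against 239.9 and 206 in Piezo1KO, with overlap between the groups. Tapbpl, the tapasin-related peptide editor, had a log2 difference of 0.61, Pdia3, a disulfide isomerase of the loading complex, 0.40, Uggt1, which tests glycoprotein folding, -0.54, and Lnpep, a trimming peptidase of endosomes, -0.65 (limma adjusted p of 0.132, 0.234, 0.151 and 0.117).

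Among constitutive proteasome subunits and activators, 6 of 8 were higher in both Piezo1KO libraries on the deposited scale, with a median of 0.90. Of all tested genes 33.9% were. Per assigned read 4 of the 8 were higher and 3 lower, Psmb7 among the lower, and Psmb6 overlapped between the groups. Psme1 and Psme2 form the interferon-responsive PA28 cap, and had log2 differences of 1.32 and 0.93 (limma adjusted p of 0.0805 and 0.118). Psme1 read at an FPKM of 14.3 and 13.9 in WT against 30.9 and 43.2 in Piezo1KO. Psme3, the nuclear homologue, had -0.23 (adjusted p = 0.348). Psmb5, Psmb6, Psmb7 and Pomp, the assembly factor, had 1.01, 0.88, 0.40 and 1.05 (limma adjusted p of 0.150, 0.142, 0.152 and 0.141). Psmb5, Psmb6 and Pomp were highest in Piezo1KO 2, as was Psmb10; Psmb5 had 97.5, 89.9, 141.6 and 252 FPKM in WT 1, WT 2 and then the Piezo1KO pair.

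**Figure D5:**
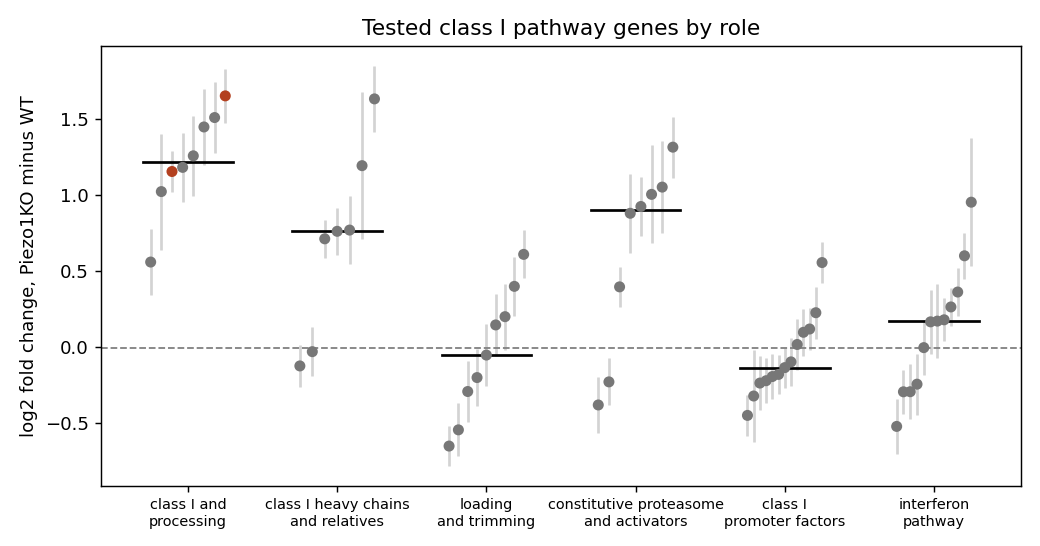
Log2 fold change, Piezo1KO minus WT, with its standard error, of the 8 tested class I and processing genes and of the 49 tested genes of 5 further lists, 1 point per gene. Black bars are list medians, the dashed line is the median of all tested genes, and the 2 red points are Psmb8 and Tapbp, the genes that passed the test.

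Factors that act at class I promoters showed no call. Of 14 listed, 13 were tested, with a median of -0.13. Rfxap, a subunit of the RFX complex, and Nfya, Nfyc and Atf1, which bind Y boxes or cyclic AMP response elements, had 0.56, -0.45, -0.22 and -0.18 (limma adjusted p of 0.129, 0.145, 0.348 and 0.371). Ciita, the class II counterpart of Nlrc5, had 27 and 21 reads in WT against 60 and 7 in Piezo1KO, or an FPKM of 0.144, 0.108, 0.427 and 0.0980. Its groups overlapped, and it was below the filter and not tested.

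In the interferon pathway 12 of 15 genes were tested, with a median of 0.17. On the deposited scale 5 of the 12 were higher and 4 lower in both Piezo1KO libraries. Of all tested genes 33.9% and 35.6% were. Per assigned read 0 of the 12 were higher and 7 lower. Irf1, the factor that switches on class I and immunoproteasome genes, read 1.70 and 1.25 FPKM in WT against 6.16 and 2.18 in Piezo1KO. The log2 difference was 0.95 (standard error 0.42, limma adjusted p = 0.206). Per assigned read Piezo1KO 1 (5.92) lay above and Piezo1KO 2 (1.19) below both WT libraries (2.14 and 1.60). Irf9, an interferon regulatory factor, and Ifnar1, an interferon receptor chain, had 0.36 and -0.52 (limma adjusted p of 0.201 and 0.160). Ifng itself had 0 and 1 reads in WT against 1 and 0 in Piezo1KO. At these counts the direction of a difference in Ifng could not be read.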

How the data were processed

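Per the submitters' processing notes, the tools were fastp 0.19.7 and featureCounts 1.5.0-p3 and the build mm10 (GRCm38); aligner, annotation release and FPKM formula: not given in the sources used here. The authors deposited 1 FPKM value per gene and library. Libraries are numbered by the sample number of their titles; columns were matched by the samples' descriptions. FPKM was multiplied by gene length and divided by the smallest step of these products in each library, taken as 1 read. This recovered whole reads for 100% of values above 0 (tolerance 0.05 reads). The read counts, the assigned totals and the library sizes behind the FPKM rest on that step.

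The test was limma 3.58.1 (R 4.3.3) on log2(FPKM + 1) (lmFit, eBayes with intensity trend, 2 residual and 2.59 prior degrees of freedom), Piezo1KO minus WT, no block, over genes whose mean FPKM reached 1. Two-sided p-values were Benjamini-Hochberg adjusted over 11085 genes. The script was tested on simulated data, which did not carry the differences between groups in mitochondrial share and scaling seen here. Promoter sequences came from RefSeq. Named genes were the 10, then up to 4 genes with the smallest p from each of 5 related lists, plus Irf1, Ifng, Ciita, Psmb5, Psmb6, Psmb7 and Piezo1; others named were chosen after their values were seen. 1 gene that the rule names is not reported here. The members and lists were chosen with earlier results of these data known. Alternatives are given in the closing section.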

Additional observations from a re-analysis of the deposited data

How the results depend on the processing

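The number of genes called, 122 (66.4% higher), was 1 without a filter, 68 at a mean FPKM of at least 5, 1707 scaled to all assigned reads (16.2% higher), 192 after quantile normalisation, 1521 in voom on recovered reads (13.0% higher) and 264 with a replicate block; the share higher was 75.5% with a pseudocount of 0.1 and 56.2% per read outside mitochondrial genes. Leaving out 1 library gave 0 to 5859 calls, with 723 and 616 genes at an unadjusted p under 0.05 in limma without WT 1 and without WT 2. Of the 10 class I and processing genes, 2 passed, against 0 without a filter (7 at an unadjusted p under 0.05), 1 at a mean FPKM of at least 5 (Tapbp), 1 scaled to all assigned reads (Psmb8), 0 per read outside mitochondrial genes (6 unadjusted) and 1 in voom (Psmb8), and 0 to 7 with 1 library left out. Of the 49 related genes 0 passed, against 4 scaled to all assigned reads, 1 after quantile normalisation (H2-T23), 2 in voom and 1 with a replicate block (H2-T23), and 0 to 23 with 1 library left out. Same-numbered libraries did not deviate together (r = -0.033 across genes), so the numbers are not taken to pair them; with the block, H2-K1 passed as well (adjusted p = 0.0323). No fold change of the 10 genes changed sign under any alternative that gave one; Psmb9 and Nlrc5 were fitted only without a filter. With 1 added to each FPKM, the log2 differences of the Psmb8 to Psmb5 and Psmb9 to Psmb6 ratios were 0.65 and 0.14, since most of those FPKM values were below or near 1. Low read counts limit Psmb9, Nlrc5 and Ifng, and also Psmb8, with 30 and 23 reads in WT, and Tap2, with 35 to 98 reads per library.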
